A study of Mus musculus with 48 samples.

Results

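The comparison is of regulatory T cells (Tregs) from mice given H16R, a mutein of human IL-2, with Tregs from mice given PBS, both under an isotype control antibody. Its members were chosen by the sample labels: the 4 Treg libraries labelled isotype and H16R and the 4 labelled isotype and PBS, 8 of the 48 libraries of the series. All mice were C57BL/6 females of 8 to 12 weeks. They received 2 intraperitoneal doses of 500 µg of antibody, the day before and on the day of dosing, and PBS or 25 µg of IL-2 in 1 injection under the skin, and spleens were taken on day 4. The other IL-2 molecules used below are WT IL-2 and the 3x mutein, which carries the substitutions D20A, V91K and M104V where H16R carries 1, and the other antibody blocks MHC class II. All 3 IL-2 molecules were human IL-2 fused to an Fc part of human IgG1 without effector function, and the PBS control did not contain the Fc part. Each library came from 1 mouse, and in the labels a pair of the WT IL-2 libraries carry the same animal number and differ in sample number. The cells were purified with magnetic beads as the CD25+ fraction of splenic CD4 T cells, without a sort on Foxp3, so that a library holds all cells of that fraction. The study stained aliquots for Foxp3 and reports that Foxp3+ cells made up the great majority in most samples.

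IL-2 is the cytokine on which Tregs depend. It binds a receptor of several chains, of which the alpha chain (CD25, Il2ra) captures the cytokine and the beta and common gamma chains (Il2rb, Il2rg) signal through the kinases Jak1 and Jak3 to the transcription factors Stat5a and Stat5b. Tregs make little IL-2 of their own and carry much CD25, which makes them more responsive to low doses or weak forms of the cytokine than other T cells. In the spleen, naive-like Tregs recirculate, whereas effector Tregs hold suppressive molecules such as IL-10 and receptors that guide them to other tissues. The histidine that H16R replaces lies in the part of IL-2 that contacts the beta chain, and the mutein is an attenuated agonist.

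Total expected counts, the reads assigned to genes, were 34.58, 20.18, 24.53 and 18.28 M in the PBS libraries and 41.27, 32.91, 48.68 and 41.69 M in the H16R libraries, so that depth differed between the groups. Foxp3, the lineage factor of Tregs, lay between 188 and 206 FPKM in the PBS libraries and between 287 and 311 FPKM in the H16R libraries, against 14.6 to 16.1 FPKM in the CD25- T cells of PBS mice. On the first principal component of the 8 libraries, which held 65.4% of the variance, the PBS libraries lay between −46.5 and −28.6 and the H16R libraries between 31.3 and 47.9. The second component held 13.2% and set apart PBS replicate 1, at 29.3, and PBS replicate 4, at −37.2. PBS replicate 1 had the highest summed CPM of B cell markers, 852 CPM against 144 to 193 CPM in the other PBS libraries and 35.2 to 47.4 CPM with H16R, and PBS replicate 4 was the shallowest.

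**Figure D1:**
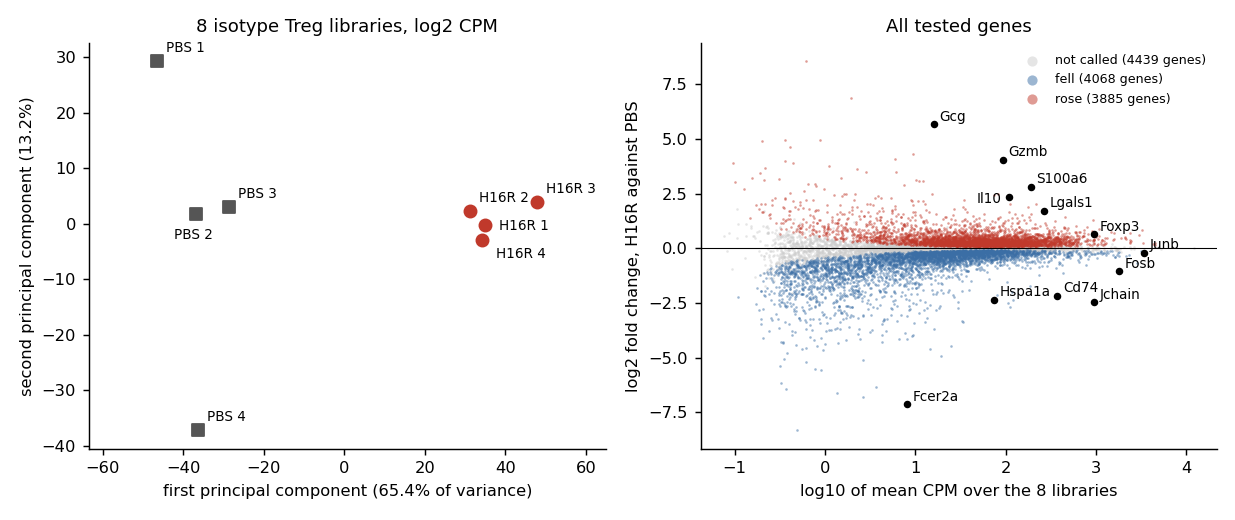
The left panel plots the 8 isotype Treg libraries on the first and the second principal component of log2 CPM (unitless scores, squares PBS, circles H16R), and the right panel plots the log2 fold change of every tested gene against the log10 of its mean CPM over the 8 libraries. PBS and H16R libraries do not overlap on the first component, PBS replicates 1 and 4 lie apart on the second, and 3885 genes rose and 4068 fell.

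H16R changed most of the protein-coding genes that passed the filter on low counts. Of 12392 such genes, 7953 (64.2%) passed an adjusted p of 0.1 in edgeR's quasi-likelihood test, with 3885 (31.4%) higher and 4068 (32.8%) lower with H16R than with PBS. Most of these changes were small. A change of at least 2-fold was called for 307 higher genes (2.48%) and 968 lower genes (7.81%). The 4 H16R libraries all lay above the 4 PBS libraries for 2909 genes (23.5%) and all below for 2891 (23.3%). The median log2 fold change of all tested genes was −0.01, and the share of called genes that were higher was 48.85%. With counts scaled to library totals alone, without TMM (edgeR's correction for composition), 3074 genes were higher and 4921 lower, 38.45% of the calls higher, with the median at −0.08. Without both PBS replicates 1 and 4, which were left out together after the data were seen, 3586 genes were higher and 3660 lower. With every library thinned to the smallest total, 3799 were higher and 3705 lower. With no filter on low counts, 8408 of 17589 genes passed.

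Below, CPM is the expected count scaled to counts per M with TMM, as mean ± SD over the 4 libraries of a group, PBS first, unless single libraries are listed in the order of their replicate numbers. A log2 fold change is H16R minus PBS with its standard error, and a gene is said to rise or fall if it passed the adjusted p of 0.1. The shares of all tested genes that rose and fell, 31.4% and 32.8%, are the background against which each list of genes is read, and the lists are described by counts and medians with no test of their own. The most highly expressed gene of a list is the one with the highest mean FPKM, a level per length of transcript.

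The largest rises were in genes of several kinds, among them secreted products, enzymes, calcium-binding proteins and receptors for chemokines and cytokines. These genes are those with the largest log2 fold change among called genes whose mean CPM over all 8 libraries was above 5, with no overlap of the groups. Gcg, which encodes the precursor of glucagon, was at 0.857, 0.0971, 0.889 and 0.422 CPM in the PBS libraries and at 16.4, 25.5, 29.3 and 54.8 CPM in the H16R libraries. The H16R libraries were all high and differed among themselves by more than their lowest value, and the log2 fold change was 5.66 ± 0.51 (adjusted p = 2.68e-10). Lgals7, which encodes galectin-7, was at 1.00, 0.777, 1.05 and 0.739 CPM with PBS and at 12.9, 16.8, 25.4 and 17.9 CPM with H16R, a log2 fold change of 4.32 ± 0.28. Amotl1, an angiomotin-like scaffold protein, was at 0.457, 0.680, 0.687 and 0.898 CPM and then at 12.1, 11.1, 14.1 and 7.48 CPM (4.10 ± 0.22). For both genes the PBS libraries stayed near or below 1 CPM and no H16R library came near them.

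Gzmb, which encodes the cytotoxic protease granzyme B (chr14:56258838-56262260, GRCm38), was at 8.77, 8.25, 11.7 and 15.3 CPM in the PBS libraries and at 184, 164, 252 and 111 CPM in the H16R libraries. It was 16.4-fold higher with H16R, a log2 fold change of 4.04 ± 0.27 (adjusted p = 1.10e-12), and the lowest H16R library was far above the highest PBS library. Nos1, the neuronal nitric oxide synthase, went from 0.926 ± 0.469 to 11.3 ± 2.93 CPM (3.50 ± 0.26). Hdc, the enzyme that makes histamine, was at 2.49, 0.874, 2.02 and 2.80 CPM with PBS and 10.4, 17.1, 31.1 and 13.8 CPM with H16R (3.13 ± 0.44), and H16R replicate 3 was the highest of all. Tmprss13, a membrane serine protease, rose from 2.26 ± 0.386 to 19.8 ± 3.81 CPM (3.10 ± 0.16). Frmd5, a FERM domain protein of the cell cortex, rose from 2.63 ± 0.276 to 21.8 ± 1.59 CPM (3.05 ± 0.19), and Fam20a, a pseudokinase of the secretory pathway, rose from 1.76 ± 0.228 to 13.2 ± 2.80 CPM (2.90 ± 0.26). Rhoc, a small GTPase, rose from 4.70 ± 0.767 to 26.0 ± 3.68 CPM (2.46 ± 0.15).

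Among genes whose mean CPM was above 50, a limit chosen after the values were seen, the genes with the largest rises after Gzmb were S100a6, Ccr2, Il1rl1, Il10, S100a4, Klrg1, Cdc25b, Lgals1, Arl5a, Anxa2, Tigit, Lag3, Ccr4 and Neb. Il10, the suppressive cytokine (chr1:131019845-131024974), was at 31.9, 32.2, 38.5 and 41.6 CPM with PBS and at 203, 186, 199.5 and 139 CPM with H16R, 5.06-fold higher (2.34 ± 0.15). Il1rl1, which encodes ST2, the receptor of the alarmin IL-33 (chr1:40429570-40465415), was at 17.7, 26.0, 21.3 and 27.9 CPM and then at 125, 123, 141 and 114 CPM, 5.47-fold higher (2.45 ± 0.13). In neither gene did the groups come near each other. Arl5a, an Arf-like GTPase, rose from 123 ± 4.93 to 394 ± 30.1 CPM (1.68 ± 0.08), and Neb, which encodes the giant muscle protein nebulin, rose from 79.3 ± 19.0 to 225 ± 27.6 CPM (1.51 ± 0.21).

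**Figure D2:**
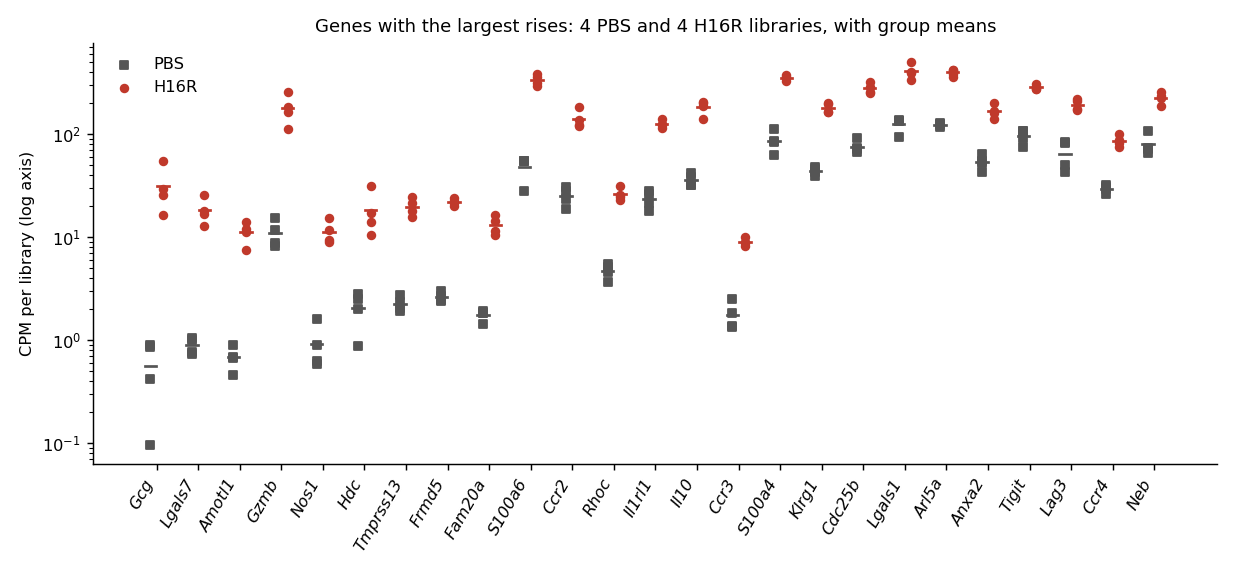
CPM per library (log axis) of the genes with the largest rises, with 4 PBS libraries (grey squares) and 4 H16R libraries (red circles) each and a short line at the group mean. For every gene shown the 4 H16R libraries lie above the 4 PBS libraries, which was a condition of the rule that chose the genes. The mean with H16R is 31.5 CPM for Gcg and 334 CPM for S100a6.

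Of 9 genes of the IL-2 receptor and its JAK-STAT pathway, 7 (77.8%) rose and 0 fell, with a median log2 fold change of 0.26. All the receptor chains rose. Il2ra was at 344, 369, 360.2 and 382 CPM in the PBS libraries and at 480.3, 496, 551 and 447 CPM in the H16R libraries (0.44 ± 0.09, adjusted p = 2.35e-04), and the groups did not overlap. Il2rb rose from 868 ± 31.0 to 1040.4 ± 45.3 CPM (0.26 ± 0.06) and Il2rg, the most highly expressed of the 9, from 522 ± 21.0 to 654 ± 27.6 CPM (0.32 ± 0.05). The kinases Jak3 (0.43 ± 0.05) and Jak1 (0.32 ± 0.05) rose by amounts in the same range. Stat5b rose from 332 ± 17.9 to 382 ± 16.5 CPM (0.20 ± 0.04), whereas Stat5a was at 144, 133, 149 and 139 CPM with PBS and 125, 132, 139 and 139.9 CPM with H16R, with overlapping libraries (−0.08 ± 0.05, adjusted p = 0.22). Stat5a passed the threshold as lower when counts were scaled to library totals alone (log2 fold change −0.15).

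The list of genes tied to STAT5 holds genes it is known to induce, feedback inhibitors among them, and genes that IL-2 is known to repress, such as Bcl6. Of 13, 4 (30.8%) rose and 5 (38.5%) fell, close to the 31.4% and 32.8% of all tested genes, and the median was −0.01, the same as that of all tested genes. Socs2, a feedback inhibitor of cytokine signaling, was at 31.1, 35.5, 35.7 and 31.5 CPM with PBS and at 77.4, 74.2, 102 and 72.2 CPM with H16R, 2.44-fold higher (1.29 ± 0.13). The survival kinase Pim1, the most highly expressed of the list, rose from 1205 ± 41.4 to 1934 ± 77.6 CPM (0.68 ± 0.05), while its relative Pim2 fell from 21.3 ± 1.93 to 10.4 ± 0.366 CPM (−1.03 ± 0.11). Bcl2, the anti-apoptotic factor, fell from 215 ± 10.8 to 117 ± 8.77 CPM (−0.88 ± 0.09), and Myc fell from 97.2 ± 15.6 to 55.9 ± 2.50 CPM (−0.80 ± 0.09). Socs1 fell (−0.45 ± 0.08) and Socs3 rose (0.29 ± 0.07). Cish, the inhibitor named for its induction by cytokines, was at 228, 228, 239 and 238 CPM with PBS and 222, 234, 225 and 216 CPM with H16R (−0.06 ± 0.06, adjusted p = 0.43). Cish passed as lower on library totals alone (−0.12, adjusted p = 0.08) and with limma on log2(FPKM + 1) (−0.12, adjusted p = 0.095). Il7r, the IL-7 receptor chain, had overlapping libraries (0.15 ± 0.12, adjusted p = 0.27). Without PBS replicate 4 the adjusted p of Il7r was 0.027 at a log2 fold change of 0.30.

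STAT5 binds the palindrome TTCNNNGAA, and the promoters of these genes are shown because their transcripts are the nearest readout of the pathway that the mutein engages. The letters were searched in the 250 bases before each RefSeq transcript start (GRCm38.p6), where 2306 of 32851 promoters (7.02%) and 2197 of 27025 genes (8.13%) held them; as the motif is a palindrome, both strands give the same matches. Of the STAT5 target list, 9 of 13 genes had a promoter entry and 3 held a match (Socs3, Il7r and Bcl6). Of the receptor and JAK-STAT list, 7 of 9 genes had an entry and 0 held one, and of 12 tested genes of Treg identity 8 had an entry and 2 held one (Tnfrsf18 and Foxp3). In the RefSeq windows below, read 5′ to 3′ on the gene's strand, capitals mark the matches; Bcl6 has windows before 2 starts, with 1 and 3 matches.
Socs3, chr11:117969492-117969540, minus strand: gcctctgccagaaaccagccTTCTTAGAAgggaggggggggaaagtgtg
Il7r, chr15:9529990-9530038, minus strand: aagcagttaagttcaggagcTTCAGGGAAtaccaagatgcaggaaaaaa
Bcl6, chr16:23988942-23988990, minus strand: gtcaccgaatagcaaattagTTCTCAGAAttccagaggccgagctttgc
Bcl6, chr16:23981343-23981471, minus strand: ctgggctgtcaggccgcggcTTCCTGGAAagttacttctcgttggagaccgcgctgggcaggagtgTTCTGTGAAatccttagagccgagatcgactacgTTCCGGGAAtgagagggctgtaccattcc
Tnfrsf18, chr4:156026203-156026251, plus strand: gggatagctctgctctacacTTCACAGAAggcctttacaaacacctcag
Foxp3, chrX:7580324-7580372, plus strand: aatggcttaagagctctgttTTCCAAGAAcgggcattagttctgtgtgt
A match is a description of the letters in the window and not a bound site. Among these 5 genes, Foxp3, Tnfrsf18 and Socs3 rose, Bcl6 fell from 44.8 ± 3.24 to 32.7 ± 1.302 CPM (−0.46 ± 0.07), and Il7r did not pass the threshold.

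Genes that define Tregs rose as a group: of 12 tested, 10 (83.3%) rose and 1 fell, with a median log2 fold change of 0.54. Foxp3 (chrX:7573644-7595245) was at 746, 753, 774 and 689 CPM with PBS and at 1109, 1165, 1232 and 1120.3 CPM with H16R, 1.56-fold higher (0.64 ± 0.06, adjusted p = 1.61e-10), and the groups did not overlap. Ikzf2, which encodes the Ikaros family factor Helios, rose from 631 ± 89.7 to 992 ± 50.7 CPM (0.65 ± 0.10). Itgae, the integrin chain CD103, had the largest rise of the list and was at 87.7, 89.9, 89.1 and 101 CPM and then at 241, 216, 228 and 219.8 CPM (1.301 ± 0.08). Lrrc32, which encodes GARP, the surface docking receptor for latent TGF-beta, rose from 303 ± 15.2 to 594 ± 22.4 CPM (0.97 ± 0.06). Ctla4, the inhibitory receptor and the most highly expressed gene of the list, was at 834, 944, 1084 and 1189 CPM with PBS and 1352, 1294, 1274 and 1369 CPM with H16R (0.39 ± 0.10). Tnfrsf18, which encodes GITR, rose from 169 ± 11.6 to 242 ± 14.2 CPM (0.52 ± 0.07). The 1 member called lower was Gpr83, an orphan receptor of Tregs, from 70.5 ± 7.58 to 53.8 ± 5.06 CPM (−0.39 ± 0.11), and without H16R replicate 4 a further member fell, 2 in all. Marker genes of B cells, plasma cells and myeloid cells were lower with H16R (values further below), and their part in the rise of Treg genes was not tested.

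Molecules through which Tregs suppress other cells mostly rose. Of 15 tested, 11 (73.3%) rose and 1 fell, 7 of them rose at least 2-fold, against 2.48% of all tested genes, and the median was 0.97. Beside Gzmb and Il10, Areg, which encodes the repair factor amphiregulin, was at 26.9, 30.7, 33.0 and 28.8 CPM with PBS and at 69.0, 67.1, 58.7 and 66.5 CPM with H16R (1.13 ± 0.12). Lag3, an inhibitory receptor that binds MHC class II, was at 83.9, 49.5, 80.8 and 42.3 CPM and then at 174, 169.6, 207 and 219 CPM (1.58 ± 0.20). The PBS libraries of Lag3 differed among themselves and still lay below all H16R libraries. Tigit, an inhibitory receptor for nectin-like ligands, rose from 94.5 ± 15.0 to 283 ± 14.0 CPM (1.58 ± 0.10). Ebi3, a subunit of IL-35, was the 1 member that fell, from 20.8 ± 1.95 to 15.0 ± 2.07 CPM (−0.48 ± 0.12), and without PBS replicate 2 the number that fell was 2.

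Among costimulatory and inhibitory receptors 11 of 18 (61.1%) rose and 4 fell, with a median of 0.51. Havcr2, which encodes TIM-3, had the largest rise, from 5.60, 3.30, 5.58 and 2.90 CPM with PBS to 21.2, 20.8, 20.4 and 17.1 CPM with H16R (2.15 ± 0.19). Klrg1, a receptor of terminally differentiated T cells and effector Tregs, was at 42.8, 47.4, 39.0 and 45.7 CPM and then at 195, 199, 162 and 162 CPM (2.04 ± 0.18). Icos, the inducible costimulator, rose from 185 ± 34.4 to 382 ± 29.3 CPM (1.04 ± 0.11), and Pdcd1, which encodes PD-1, rose from 39.3 ± 5.85 to 56.7 ± 4.50 CPM (0.52 ± 0.11). Cd86, a ligand of CTLA-4 and CD28 that antigen-presenting cells carry, had the largest fall, from 18.3 ± 1.24 to 12.4 ± 1.23 CPM (−0.57 ± 0.13).

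Genes reported for Tregs of non-lymphoid tissues, several of them also in the lists above, formed the group with the highest median, 1.29: 14 of 16 (87.5%) rose, 10 of them at least 2-fold, and 1 fell. Besides Gzmb, Il1rl1, Il10, Klrg1 and Areg, the chemokine receptor Ccr2 was at 18.7, 30.6, 23.3 and 28.1 CPM with PBS and at 136, 122, 181 and 119 CPM with H16R (2.49 ± 0.14). Gata3, a factor of type 2 and tissue Tregs, rose from 191 ± 21.0 to 259 ± 3.42 CPM (0.44 ± 0.07), and Batf, an AP-1 family factor, from 70.4 ± 9.89 to 93.5 ± 4.36 CPM (0.41 ± 0.08). Dgat2, an enzyme of triglyceride synthesis, was the member that fell, from 7.85 ± 0.163 to 3.57 ± 0.562 CPM (−1.14 ± 0.12), and 2 fell without PBS replicate 1. Transcription factors of effector Tregs moved both ways, with 8 of 19 (42.1%) higher and 6 (31.6%) lower and a median of −0.03 that turned to 0.05 without PBS replicate 1. Vdr, the vitamin D receptor, was at 4.20, 3.25, 3.27 and 2.22 CPM and then at 10.9, 11.0, 15.0 and 23.0 CPM (2.18 ± 0.34). Maf, a factor for Il10, rose from 133 ± 20.0 to 291 ± 18.7 CPM (1.13 ± 0.09), and Prdm1, which encodes Blimp-1, rose from 34.0 ± 1.99 to 69.3 ± 3.25 CPM (1.03 ± 0.09). Myb, a factor of progenitor cells, fell from 61.5 ± 6.72 to 22.1 ± 1.86 CPM (−1.48 ± 0.09), and Bhlhe40, the most highly expressed of the list, fell from 780.5 ± 72.1 to 507 ± 58.5 CPM (−0.62 ± 0.10).

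Of 18 receptors for chemokines and related cues, 10 (55.6%) rose and 5 (27.8%) fell, with a median of 0.27. Beside Ccr2, Ccr3, the eotaxin receptor, was at 2.51, 1.36, 1.33 and 1.85 CPM with PBS and at 8.72, 8.21, 9.96 and 9.05 CPM with H16R (2.31 ± 0.32). Ccr4, a skin-homing receptor, rose from 29.4 ± 2.27 to 85.9 ± 10.4 CPM (1.55 ± 0.10), and Cxcr3, a receptor for interferon-induced chemokines, from 47.2 ± 7.83 to 92.9 ± 11.4 CPM (0.97 ± 0.13). Ccr7, which guides T cells into lymph nodes and was the most highly expressed of the list, was at 498, 391, 499 and 495 CPM and then at 269, 249.97, 219 and 269.8 CPM (−0.90 ± 0.13). Ccr6, the receptor of CCL20, had the largest fall, from 27.7 ± 2.42 to 11.0 ± 2.26 CPM (−1.34 ± 0.15), and Cxcr4, the receptor of CXCL12, fell from 272 ± 27.3 to 207 ± 25.3 CPM (−0.40 ± 0.11).

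Of 17 genes of the naive and recirculation program 6 (35.3%) rose and 4 (23.5%) fell, against 31.4% and 32.8% of all tested genes, with a median of 0.02 that was −0.05 on library totals alone. S1pr1, the receptor that lets T cells leave lymphoid tissue, rose from 226 ± 16.9 to 375 ± 34.6 CPM (0.73 ± 0.07). Igfbp4 fell from 51.4 ± 2.86 to 21.3 ± 2.66 CPM (−1.27 ± 0.15). Klf2, a regulator of S1pr1 and the most highly expressed of the list, was at 1041, 979, 1084 and 847 CPM with PBS and 880.2, 848, 931 and 903 CPM with H16R (−0.15 ± 0.10, adjusted p = 0.19), and without PBS replicate 4 it passed as lower at −0.21 (adjusted p = 0.077), as it did on library totals alone (−0.22, adjusted p = 0.057). Among receptors for other cytokines 10 of 21 (47.6%) rose and 4 (19.0%) fell, with a median of 0.15. Il1r2, the decoy receptor for IL-1, was at 40.4, 24.9, 41.2 and 23.6 CPM with PBS and at 7.56, 7.87, 3.69 and 12.8 CPM with H16R, the largest fall of that list (−2.04 ± 0.35), and Ifngr1, the most highly expressed, rose from 315 ± 52.7 to 447 ± 32.6 CPM (0.51 ± 0.08).

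Integrins and adhesion molecules mostly rose, 13 of 16 (81.2%) against 2 that fell, with a median of 0.55. Itga2, the collagen receptor chain, was at 4.63, 6.12, 5.38 and 4.65 CPM with PBS and at 21.6, 17.6, 23.2 and 20.5 CPM with H16R (2.004 ± 0.12). Itgb7, which pairs with CD103 and with the alpha 4 chain, rose from 662 ± 40.9 to 1130.1 ± 84.6 CPM (0.77 ± 0.06), and Cd44, the hyaluronan receptor, fell from 206 ± 22.8 to 169 ± 14.7 CPM (−0.28 ± 0.06). Regulators of small GTPases and actin rose almost throughout, 21 of 22 (95.5%), with a median of 0.44 and 0 changes of 2-fold. Nck2, an adaptor between receptors and actin, rose from 40.5 ± 0.836 to 74.1 ± 5.10 CPM (0.87 ± 0.06), and Actb, whose reads may be shared with other actin genes and pseudogenes, rose from 2403 ± 292 to 3642 ± 316 CPM (0.60 ± 0.08). Pak1, a kinase downstream of Rac, was the 1 member that fell, from 10.4 ± 1.53 to 5.36 ± 0.352 CPM (−0.97 ± 0.14).

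Galectins, S100 proteins, annexins and cytoskeletal genes of effector T cells formed 1 list, of which 12 of 16 (75.0%) rose, 8 of them at least 2-fold, with a median of 1.00. S100a6 was at 54.2, 54.5, 54.5 and 27.8 CPM with PBS and at 354, 314, 380.0 and 288 CPM with H16R, 6.96-fold higher (2.80 ± 0.16, adjusted p = 9.64e-14). PBS replicate 4 was the lowest of the PBS libraries for S100a6, and the other PBS libraries were almost equal. S100a4 rose from 85.3 ± 19.9 to 352 ± 20.7 CPM (2.04 ± 0.12) and S100a10, the most highly expressed of the list, from 246 ± 25.2 to 669 ± 64.4 CPM (1.45 ± 0.09). Lgals1, which encodes galectin-1, was at 133, 137, 133 and 92.6 CPM and then at 393, 400.4, 499 and 329.8 CPM (1.71 ± 0.15), and Anxa2 rose from 53.0 ± 8.75 to 166 ± 25.0 CPM (1.64 ± 0.14). Anxa1 was the 1 member that fell, from 15.2 ± 1.90 to 8.20 ± 1.02 CPM (−0.89 ± 0.18). Of the 8 GIMAP genes, GTPases of lymphocyte survival that lie together on chromosome 6, 7 rose and 0 fell, with a median of 0.35. Gimap7 rose from 84.2 ± 14.8 to 191 ± 9.73 CPM (1.18 ± 0.10). Gimap6, the most highly expressed of them and the one with the smallest change, did not pass (0.06 ± 0.06, adjusted p = 0.38) and passed without PBS replicate 4 (0.12, adjusted p = 0.09).

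The T cell receptor complex and the early steps of its signaling rose in most cases, and genes known to respond to the receptor moved both ways. Of 24 genes of the complex and its proximal signaling 20 (83.3%) rose and 2 (8.3%) fell, with a median of 0.25. Cd3d, a chain of the complex, was at 273, 252, 278 and 202 CPM with PBS and at 415, 429.6, 429.9 and 394 CPM with H16R (0.73 ± 0.07). Ptprc, which encodes the phosphatase CD45, rose from 2169 ± 334 to 2766 ± 81.8 CPM (0.35 ± 0.07). Without PBS replicate 4, 1 of the 24 fell.

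Of 20 TCR response genes 6 (30.0%) rose and 11 (55.0%) fell, with a median of −0.33. Fosb, an AP-1 subunit, was at 2154, 2514, 2561 and 2477 CPM with PBS and at 1113, 1196, 1074 and 1294 CPM with H16R (−1.05 ± 0.12). Jun fell from 3489.9 ± 136 to 2163 ± 86.1 CPM (−0.69 ± 0.10) and Junb, the most highly expressed of the list, from 3643 ± 249.6 to 3137 ± 97.8 CPM (−0.22 ± 0.07), while Fos rose from 2213 ± 153 to 2588 ± 133 CPM (0.23 ± 0.08). Fos did not pass on library totals alone (0.16, adjusted p = 0.103). The immediate early factors Egr1 (−0.75 ± 0.10) and Egr2 (−0.59 ± 0.10) and the nuclear receptor Nr4a3 (−0.75 ± 0.15) fell. Nr4a1, which encodes Nur77, was at 960.0, 913, 1199 and 1261 CPM with PBS and 1038, 1034, 1009.5 and 997 CPM with H16R and overlapped (−0.09 ± 0.11, adjusted p = 0.51). Dusp5, a phosphatase of nuclear ERK, rose from 251 ± 19.2 to 356 ± 15.0 CPM (0.51 ± 0.07).

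Feedback inhibitors of MAPK signaling gave 5 of 15 higher and 8 (53.3%) lower, with a median of −0.21. Spry2, a Sprouty protein, fell from 9.74 ± 2.06 to 4.13 ± 0.834 CPM (−1.23 ± 0.19), Rasa3, a GTPase-activating protein for Ras and Rap, rose from 252 ± 4.35 to 409 ± 41.4 CPM (0.70 ± 0.06), and the abundant phosphatase Dusp1 was at 1129, 1217, 1256 and 1186 CPM with PBS and 1280.1, 1273, 1256 and 1271 CPM with H16R (0.09 ± 0.07, adjusted p = 0.3). In the PI3K, Akt, mTOR and Foxo list 11 of 19 (57.9%) rose and 4 fell, with a median of 0.17. Phlpp1, a phosphatase that turns off Akt, rose from 58.2 ± 2.82 to 113 ± 8.10 CPM (0.95 ± 0.07), Rptor, the mTORC1 scaffold Raptor, fell from 68.2 ± 4.41 to 55.4 ± 1.65 CPM (−0.30 ± 0.05), and Pik3cd, the leukocyte PI3K catalytic subunit, fell by a small amount from 642 ± 18.5 to 602 ± 16.2 CPM (−0.09 ± 0.03, adjusted p = 0.019). Without PBS replicate 4, 2 of the 19 fell. Pik3cd did not pass with no filter on low counts (−0.07, adjusted p = 0.16).

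Members of the TNF receptor superfamily rose in 8 of 14 cases (57.1%) and fell in 3, with a median of 0.26. The number that fell was 5 on library totals alone and 1 with every library thinned to the smallest total. Cd27 was at 204, 199.8, 204 and 180.4 CPM with PBS and at 378, 354, 407 and 357 CPM with H16R (0.93 ± 0.06), and Tnfrsf4, which encodes OX40 and was the most highly expressed of the list, rose from 196 ± 20.6 to 255 ± 12.6 CPM (0.38 ± 0.09). Ltbr, a receptor of myeloid and stromal cells, was low and fell from 1.72 ± 0.619 to 0.884 ± 0.230 CPM (−0.99 ± 0.37). Without PBS replicate 1 Ltbr did not pass (−0.77, adjusted p = 0.105). In the NF-kB pathway 6 of 20 (30.0%) rose and 8 (40.0%) fell, with a median of −0.06, and 3 rose on library totals alone. Among the subunits, Rel was at 418, 438, 446 and 644 CPM with PBS and at 309.8, 332, 249.7 and 347 CPM with H16R (−0.65 ± 0.15), and Nfkb2 fell from 198 ± 13.5 to 143 ± 5.57 CPM (−0.47 ± 0.08). Ikbkb, the kinase of the inhibitor IkB, rose from 213 ± 9.27 to 277 ± 19.4 CPM (0.38 ± 0.05). Tnfaip3, which encodes the inhibitor A20 and was the most highly expressed of the list, was at 4669.7, 4907, 5311 and 6646 CPM with PBS and 5167, 5273, 5081 and 5321 CPM with H16R (−0.05 ± 0.10, adjusted p = 0.69).

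**Figure D3:**
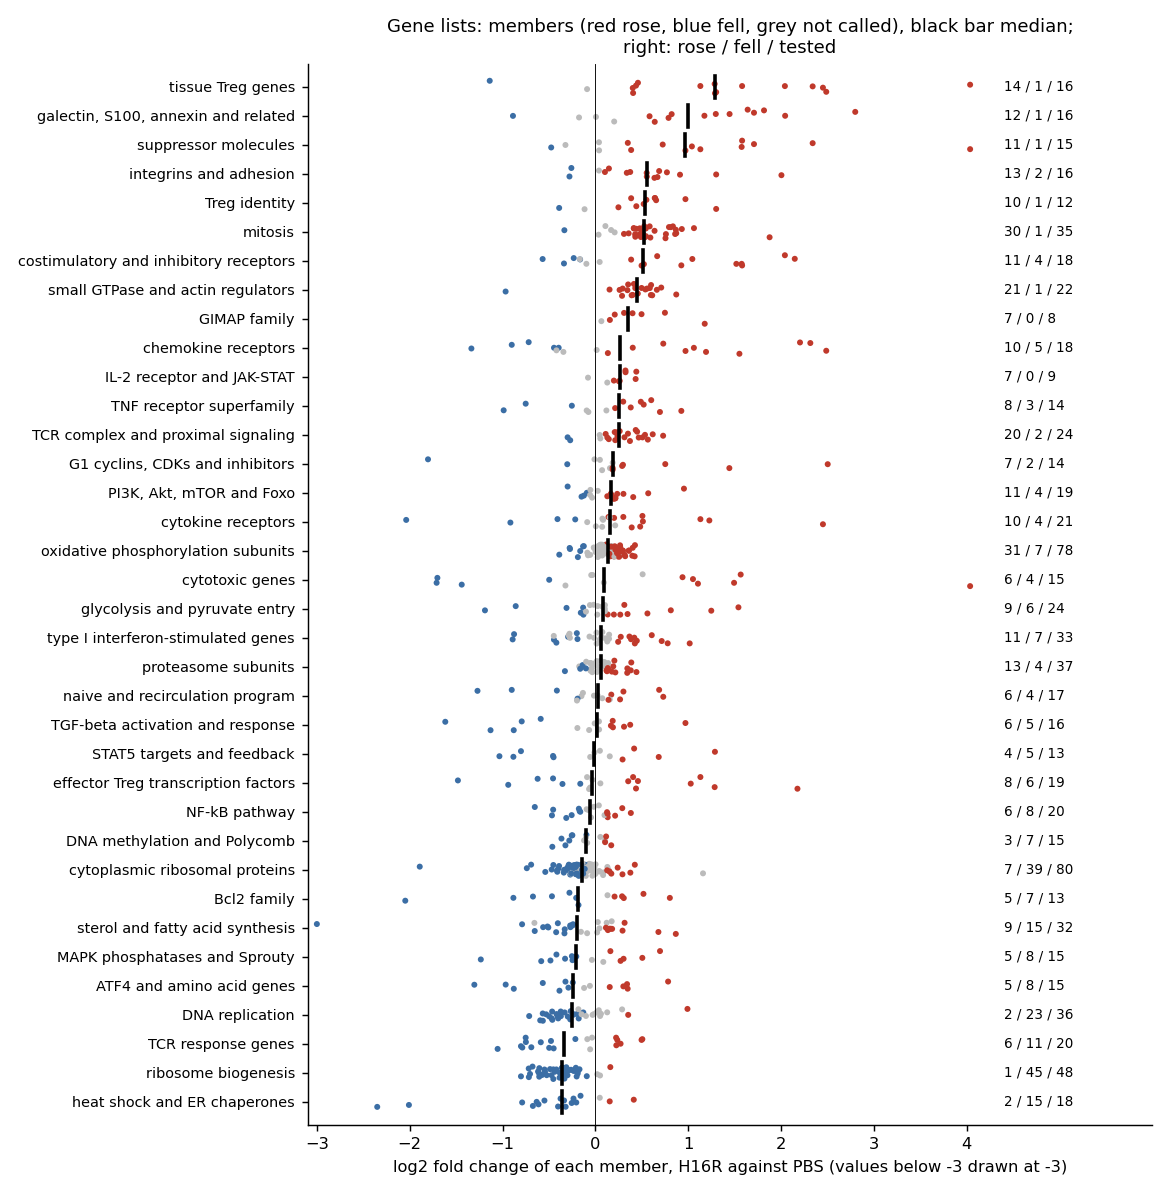
Each point is 1 tested gene of a list at its log2 fold change of H16R against PBS (red rose, blue fell, grey not called), black bars are list medians, and the numbers at the right give how many rose, fell and were tested. The marker lists of other cell types are not drawn. Among the lists drawn, tissue Treg genes have the highest median, 1.29, and heat shock and ER chaperones the lowest, −0.36.

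Genes of the cell cycle differed by phase. Of 35 genes of mitosis 30 (85.7%) rose and 1 fell, with a median of 0.53, whereas of 36 genes of DNA replication 2 (5.6%) rose and 23 (63.9%) fell, with a median of −0.25. Mki67, which encodes the proliferation marker Ki-67, was at 162, 134, 133 and 147 CPM with PBS and at 303, 284, 280.4 and 231 CPM with H16R (0.93 ± 0.14). Cdc25b, a phosphatase that activates mitotic CDK1 and both the largest rise and the most highly expressed gene of its list, was at 91.0, 71.3, 73.2 and 66.1 CPM and then at 287, 252, 315 and 256 CPM, 3.67-fold higher (1.88 ± 0.10). The mitotic cyclins Ccnb1 (0.76 ± 0.17) and Ccnb2 (0.76 ± 0.19) and topoisomerase Top2a (0.58 ± 0.12) rose. Mybl2, a factor that acts before mitosis, fell from 14.3 ± 1.82 to 11.4 ± 1.08 CPM (−0.33 ± 0.13), and without PBS replicate 1 it did not pass (−0.23, adjusted p = 0.14), which left 0 mitotic genes lower.

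Among replication genes, the helicase subunit Mcm5 was at 121, 96.1, 112 and 90.8 CPM with PBS and at 73.8, 74.3, 66.3 and 64.0 CPM with H16R (−0.59 ± 0.10), and Mcm2 fell from 103 ± 6.19 to 74.1 ± 2.80 CPM (−0.47 ± 0.07). Pcna, the sliding clamp and the most highly expressed of the list, fell from 219 ± 8.80 to 186 ± 5.12 CPM (−0.24 ± 0.06), and Rfc4, a subunit of the clamp loader, had the largest fall, from 12.8 ± 0.804 to 7.82 ± 0.822 CPM (−0.71 ± 0.11). E2f2, a transcription factor of the G1 to S transition, rose from 49.3 ± 5.78 to 98.4 ± 8.67 CPM (0.99 ± 0.09). Mcm6 (0.13 ± 0.07, adjusted p = 0.11) and the thymidylate synthase Tyms (−0.02 ± 0.09, adjusted p = 0.89) did not pass. Mcm6 passed as higher without PBS replicate 4 (adjusted p = 0.0969) and without H16R replicate 3 (adjusted p = 0.073). Of the replication genes, 14 fell and 4 rose without both PBS replicate 1 and H16R replicate 3. Among 14 cyclins, kinases and inhibitors of G1, 7 rose and 2 fell, with a median of 0.19. The CDK inhibitors Cdkn2a, from 0.465 ± 0.290 to 2.83 ± 1.04 CPM (2.50 ± 0.37), and Cdkn2c, from 11.7 ± 0.776 to 32.0 ± 4.44 CPM (1.44 ± 0.11), rose. Cdkn1b, which encodes p27 and was the most highly expressed, rose by 0.19 ± 0.08 and did not pass without PBS replicate 1 (adjusted p = 0.15) or without H16R replicate 4 (adjusted p = 0.11). It also did not pass on library totals alone (0.12, adjusted p = 0.21) or with limma on log2(FPKM + 1) (0.08, adjusted p = 0.35). Ccnd1, cyclin D1, was low and fell from 4.89 ± 2.13 to 1.42 ± 0.230 CPM (−1.80 ± 0.27).

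Genes of ribosome assembly fell in 45 of 48 cases (93.8%), and 1 rose, with a median of −0.35. Nop56, a core protein of the nucleolar particles that modify ribosomal RNA, was at 158, 150.2, 158 and 145 CPM with PBS and at 94.4, 98.6, 94.4 and 95.0 CPM with H16R (−0.68 ± 0.04, adjusted p = 1.11e-13). Npm1, the abundant nucleolar protein nucleophosmin, fell from 836 ± 38.2 to 679 ± 30.5 CPM (−0.30 ± 0.05), and Dkc1, the pseudouridine synthase dyskerin, fell from 66.9 ± 3.46 to 44.0 ± 0.792 CPM (−0.60 ± 0.05). Myc, known to drive this program, had the largest fall, and Ddx52, a helicase, was the member that rose, from 70.4 ± 4.81 to 78.6 ± 1.70 CPM (0.16 ± 0.04). The ribosomal proteins themselves, whose reads can be shared with their many processed pseudogenes and are therefore uncertain, gave 7 of 80 (8.8%) higher and 39 (48.8%) lower, with a median of −0.14. Without PBS replicate 4, 60 of 81 tested fell and 4 rose, and 4 rose without H16R replicate 2 and without H16R replicate 3. Rps12 fell from 30.1 ± 6.95 to 8.07 ± 2.33 CPM (−1.89 ± 0.21), Rps27, the most highly expressed, was at 1464, 1529, 1513 and 748 CPM with PBS and 1143, 1234, 1213 and 1186 CPM with H16R (−0.14 ± 0.13, adjusted p = 0.36), and Rpl39l, a low paralog, did not pass (1.16 ± 0.65, adjusted p = 0.13). PBS replicate 4 was the low library for Rps27, and without it Rps27 passed as lower (−0.32, adjusted p = 2.59e-04). Rpl39l passed without PBS replicate 3 (1.61, adjusted p = 0.069).

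Chaperones of heat shock and of the endoplasmic reticulum (ER) fell in 15 of 18 cases (83.3%), and 2 rose, with a median of −0.36. Hspa1a, an inducible HSP70 gene, was at 68.2, 77.9, 206 and 148 CPM with PBS and at 26.3, 23.5, 32.5 and 15.4 CPM with H16R (−2.35 ± 0.55). Hspa1b, a near-identical copy beside it on chromosome 17 whose reads may be shared with it, fell from 187 ± 90.1 to 46.4 ± 13.8 CPM (−2.01 ± 0.48). The PBS libraries of both genes were spread widely, with replicates 3 and 4 highest, and all of them lay above the H16R libraries. The mitochondrial chaperone Hspd1 fell from 259 ± 22.7 to 162 ± 8.59 CPM (−0.67 ± 0.06), Dnajc1 of the ER membrane rose from 69.3 ± 4.93 to 92.2 ± 3.27 CPM (0.41 ± 0.05), and the constitutive Hspa8, the most highly expressed, did not pass (0.05 ± 0.07, adjusted p = 0.59). Among ATF4 and amino acid genes 5 of 15 rose and 8 (53.3%) fell, with a median of −0.24. Atf4 itself fell from 525 ± 12.6 to 443 ± 13.1 CPM (−0.24 ± 0.04), Chac1, a glutathione-degrading target, was low and fell from 2.01 ± 0.508 to 0.832 ± 0.292 CPM (−1.304 ± 0.38), and Ddit4, an inhibitor of mTORC1, rose from 39.4 ± 7.35 to 68.0 ± 4.46 CPM (0.78 ± 0.10). Of 37 proteasome subunits 13 (35.1%) rose and 4 fell, with a median of 0.06 that was −0.01 on library totals alone, where 8 rose and 9 fell. Between 2 of them, without PBS replicate 1 or H16R replicate 4, and 7, without PBS replicate 4, fell. Psmb9, an interferon-inducible subunit, rose from 106 ± 18.8 to 144 ± 3.45 CPM (0.44 ± 0.08), Psmd9, an assembly factor, fell from 24.7 ± 0.887 to 19.7 ± 0.432 CPM (−0.33 ± 0.05), and Psmb8, the most highly expressed, did not pass (0.10 ± 0.06, adjusted p = 0.15, and 0.075 without PBS replicate 1).

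Of 78 nuclear-encoded subunits of oxidative phosphorylation 31 (39.7%) rose and 7 (9.0%) fell, with a median of 0.13, and 20 rose on library totals alone. Ndufb11, a subunit of complex I, rose from 66.8 ± 11.7 to 90.0 ± 5.50 CPM (0.43 ± 0.08), Uqcrh, a subunit of complex III and the most highly expressed, rose from 168 ± 26.7 to 209.6 ± 12.2 CPM (0.31 ± 0.07), and Atp5s, a coupling factor of ATP synthase, fell from 3.65 ± 0.557 to 2.78 ± 0.352 CPM (−0.39 ± 0.15). Atp5s did not pass without PBS replicate 3 (−0.28, adjusted p = 0.14) or without H16R replicate 3 (−0.30, adjusted p = 0.11), and 4 of these genes fell without PBS replicate 1. In glycolysis 9 of 24 (37.5%) rose and 6 (25.0%) fell, with a median of 0.09. Hexokinase 2 (Hk2), its first enzyme, fell from 20.6 ± 2.00 to 9.08 ± 0.889 CPM (−1.19 ± 0.09), whereas the aldolase Aldoc rose from 5.02 ± 0.636 to 14.6 ± 1.28 CPM (1.54 ± 0.12). Gapdh, often used as a reference gene, was at 607, 491, 527 and 538 CPM with PBS and 575, 572, 615 and 562 CPM with H16R (0.10 ± 0.07, adjusted p = 0.19), and without PBS replicate 1 it passed as higher (0.16, adjusted p = 0.044). Of 32 genes of sterol and fatty acid synthesis 9 (28.1%) rose and 15 (46.9%) fell, with a median of −0.20, and 5 rose on library totals alone. Ebp, a sterol isomerase, rose from 32.0 ± 4.41 to 58.6 ± 4.28 CPM (0.87 ± 0.09), and Acly, which makes cytosolic acetyl-CoA, rose by 0.11 ± 0.03 and did not pass on library totals alone (0.05, adjusted p = 0.18).

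The Bcl2 family gave 5 of 13 members (38.5%) higher and 7 (53.8%) lower, with a median of −0.18. Bcl2l11, which encodes the pro-apoptotic BIM, was at 45.9, 46.5, 44.3 and 50.9 CPM with PBS and at 82.7, 78.5, 83.3 and 82.1 CPM with H16R (0.80 ± 0.05). Mcl1, the survival factor on which Tregs depend and the most highly expressed of the family, fell from 558 ± 11.0 to 492 ± 18.5 CPM (−0.18 ± 0.04). Bcl2a1a, 1 of several near-identical copies whose reads may be split, was under 1 CPM in every library and fell (−2.05 ± 0.67). Bcl2a1a did not pass without both PBS replicate 1 and H16R replicate 3 (−1.60, adjusted p = 0.12). With limma on log2(FPKM + 1) it did not pass either (−0.42, adjusted p = 0.1002). Of 33 type I interferon-stimulated genes 11 (33.3%) rose and 7 (21.2%) fell, with a median of 0.06 that was under 0 on library totals alone. Oas1a, 1 of a cluster of related oligoadenylate synthetase genes, rose from 31.6 ± 5.28 to 64.4 ± 1.74 CPM (1.02 ± 0.10), Oas2 rose (0.78 ± 0.17), and Mx1 (−0.89 ± 0.16) and Isg15 (−0.29 ± 0.10) fell. Isg15 did not pass without PBS replicate 3 (−0.20, adjusted p = 0.1).

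In the TGF-beta list 6 of 16 (37.5%) rose and 5 (31.2%) fell, with a median of 0.01 that turned to −0.04 without PBS replicate 1. Beside Lrrc32, its largest rise and most highly expressed member, Tgfbr3, the co-receptor betaglycan, fell from 15.0 ± 2.77 to 4.90 ± 1.10 CPM (−1.62 ± 0.16). Of 15 regulators of DNA methylation and Polycomb 3 (20.0%) rose and 7 (46.7%) fell, with a median of −0.10. Ezh1, a histone methyltransferase, rose from 98.2 ± 3.00 to 110.5 ± 3.49 CPM (0.17 ± 0.04), and Uhrf1, which recruits the maintenance methyltransferase to replicating DNA, fell from 57.1 ± 7.76 to 41.5 ± 3.94 CPM (−0.46 ± 0.11). Cbx7, a Polycomb subunit and the most highly expressed, did not pass (−0.10 ± 0.06, adjusted p = 0.16), and it passed as lower on library totals alone (adjusted p = 0.02), without PBS replicate 4 (adjusted p = 0.027) and without H16R replicate 4 (adjusted p = 0.046). Among cytotoxic and NK-type genes 6 of 15 (40.0%) rose and 4 (26.7%) fell, with a median of 0.09. Gzma, granzyme A, rose from 3.46 ± 1.22 to 7.72 ± 2.19 CPM (1.10 ± 0.37), while the NK receptor Klrk1 (−1.44 ± 0.18) and the factor Eomes, from 11.6 ± 1.23 to 3.55 ± 0.428 CPM (−1.71 ± 0.20), fell.

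The largest falls were in genes of B cells and myeloid cells. All 11 B cell markers tested fell at least 2-fold, all 6 MHC class II genes fell at least 2-fold, and all 5 plasma cell markers fell at least 2-fold, against 7.81% of all tested genes. In these bulk libraries fewer cells of a type and less RNA per cell cannot be told apart. The summed CPM of the 12 B cell markers (library totals, no TMM) was 852, 193, 144 and 172 CPM in the PBS libraries and 35.2, 47.4, 36.4 and 38.6 CPM in the H16R libraries. The 6 MHC class II genes summed to 2533, 970.4, 763 and 808 CPM with PBS and 257, 258, 172 and 271 CPM with H16R, and the 5 plasma cell markers to 1826, 1859, 1747 and 1531 CPM with PBS and 315, 441, 188 and 334 CPM with H16R. In these sums every H16R library lay below every PBS library, and PBS replicate 1 was the highest for B cells and MHC class II.

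Among single genes, Fcer2a, which encodes the IgE receptor CD23, was at 54.3, 2.77, 1.25 and 5.97 CPM with PBS and at 0.0247, 0.186, 0.172 and 0.0738 CPM with H16R (−7.14 ± 1.55), and Pax5, the B lineage factor, was at 104, 14.7, 9.30 and 19.9 CPM and then at 0.939, 1.77, 1.14 and 1.13 CPM (−4.93 ± 1.01). PBS replicate 1 held most of both transcripts. Ms4a1, which encodes CD20 (−3.69 ± 0.66), and Cd79a of the B cell receptor (−3.37 ± 0.54) fell, as did the inhibitory lectin Siglecg (−3.998 ± 0.71), the Ets factor Spib (−3.96 ± 0.75), and Cd180 (−4.17 ± 0.56) and Ly86 (−3.31 ± 0.53), which form a receptor complex of B cells and myeloid cells, and Cd79b, the most highly expressed B cell marker, had the smallest fall (−1.39 ± 0.35). Scd1, the stearoyl-CoA desaturase, Chst3, a sulfotransferase, and Wdfy4, a factor of cross-presentation, fell by 4.62, 4.13 and 3.33 on the log2 scale. Without PBS replicate 1 the log2 fold changes were −4.83 (Fcer2a), −3.57 (Pax5), −2.77 (Ms4a1), −2.42 (Cd79a), −2.99 (Siglecg), −2.84 (Spib), −3.49 (Cd180), −2.71 (Ly86), −0.71 (Cd79b), −3.04 (Scd1), −2.82 (Chst3) and −2.72 (Wdfy4), and all of these still passed. The median of the B cell list was −3.69, and −2.77 without PBS replicate 1.

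Of 8 monocyte and macrophage markers tested 7 fell and 1 rose, with summed CPM of 113, 22.1, 11.3 and 15.9 in the PBS libraries and 13.5, 11.8, 13.6 and 10.6 in the H16R libraries. The sums of the groups overlapped, and without PBS replicate 1 only 1 of the 8 fell. With only the isotype PBS and H16R libraries in the fit, 5 of these markers passed the filter on low counts, and 4 fell. The count that rose was 0 without PBS replicate 2, 3 or 4 or H16R replicate 3. Lyz2, lysozyme of myeloid cells, was at 38.6, 9.13, 3.40 and 6.18 CPM with PBS and 1.24, 1.18, 0.601 and 1.06 CPM with H16R (−3.87 ± 0.87, and −2.62 without PBS replicate 1). C1qa, a complement subunit, was at 5.94, 0.0971, 0.0404 and 0.106 CPM with PBS and 0.0494, 0.0930, 0.107 and 0.0492 CPM with H16R, high in PBS replicate 1 alone (−4.45 ± 1.65, and −0.06 at an adjusted p of 0.99 without that library). Itgam, which encodes CD11b, rose from 4.81 ± 2.75 to 9.51 ± 1.84 CPM (0.92 ± 0.40, adjusted p = 0.047). Itgam did not pass without PBS replicate 2 (adjusted p = 0.11), PBS replicate 3 (adjusted p = 0.13), PBS replicate 4 (adjusted p = 0.12) or H16R replicate 3 (adjusted p = 0.12). All 7 dendritic cell markers fell, with sums of 53.4, 43.0, 25.6 and 28.4 CPM against 8.55, 8.33, 6.07 and 6.67 CPM. Among them Itgax, which encodes CD11c, fell from 13.2 ± 4.88 to 2.66 ± 0.473 CPM (−2.33 ± 0.33), Cd209a from 3.21 ± 1.70 to 0.179 ± 0.138 CPM (−4.21 ± 0.46), and Xcr1, with the smallest fall, from 1.56 ± 0.436 to 0.864 ± 0.151 CPM (−0.87 ± 0.32). Plbd1, a phospholipase of myeloid cells (−3.41 ± 0.49), and Prg2, the major basic protein of eosinophils (−3.36 ± 0.33), fell as well.

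NK cell markers summed to 34.6, 43.3, 41.3 and 49.3 CPM with PBS and 20.4, 22.7, 18.2 and 16.0 CPM with H16R, where 5 of 6 fell. Neutrophil markers summed to 35.7, 5.75, 3.26 and 12.4 CPM with PBS and 0.85, 1.28, 0.35 and 0.67 CPM with H16R. Of these, 5 of 6 tested fell, and 3 of 5 tested without PBS replicate 1. With only the isotype PBS and H16R libraries in the fit, 2 neutrophil markers passed the filter on low counts, and 2 fell. The other neutrophil markers entered the test through libraries of other groups. CD8, erythroid and platelet markers overlapped between the groups, at 6.46 to 16.1, 1.17 to 4.23 and 2.43 to 3.45 CPM over the 8 libraries. The Treg genes that rose did so in libraries with less of these other transcripts, and what part this has in the changes above was not tested.

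**Figure D4:**
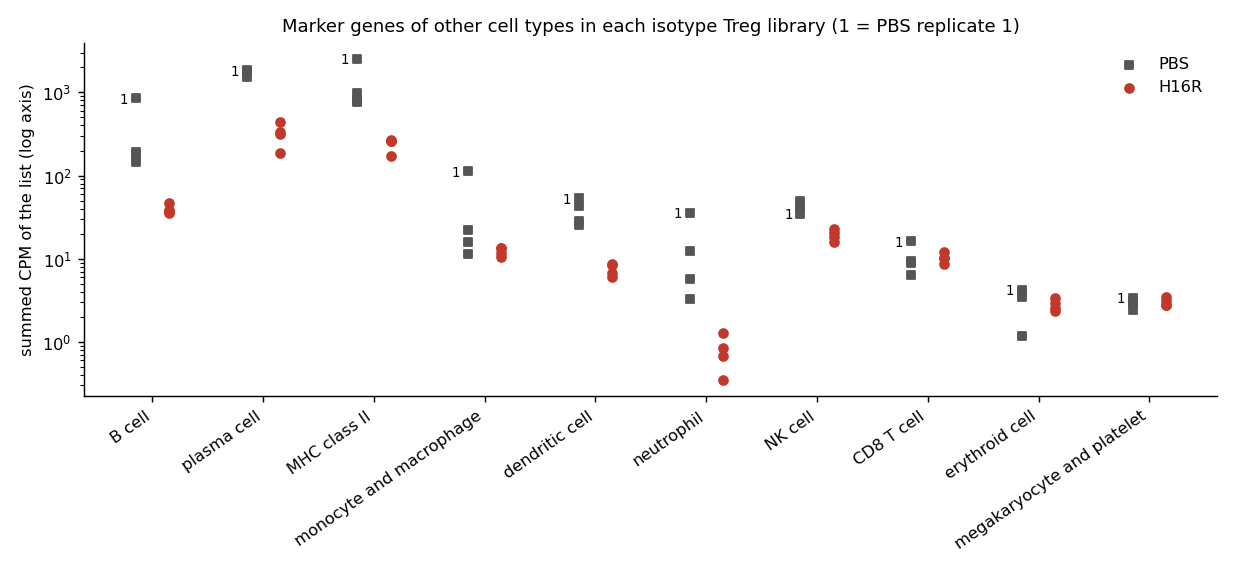
Summed CPM of the marker genes of each other cell type (log axis, scaled to library totals) in the 4 PBS (grey squares) and 4 H16R (red circles) libraries, with PBS replicate 1 marked 1. The B cell sum was 852 CPM in PBS replicate 1 and 35.2 to 47.4 CPM in the H16R libraries, while CD8, erythroid and platelet sums overlap.

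Among genes with a mean above 50 CPM, where 4127 genes were tested, the largest falls were in MHC class II genes, Jchain, heat shock genes, Atf3, Cd83, Zbtb10, Rgcc, Rhob, Klf4, Cybb and Fosb. Jchain, the joining chain of secreted antibodies, was at 1689.9, 1729.7, 1644 and 1414 CPM with PBS and at 287, 402, 174 and 310.2 CPM with H16R (−2.47 ± 0.32). Cd74, the invariant chain, was at 1179, 473, 401 and 406 CPM and then at 139.8, 148, 101 and 152 CPM (−2.19 ± 0.34). H2-Ab1 (−2.70 ± 0.42), H2-Eb1 (−2.51 ± 0.40) and H2-Aa (−2.35 ± 0.38), chains of MHC class II whose reads may be shared with related H2 genes, fell, and without PBS replicate 1 their log2 fold changes were −2.02, −1.89 and −1.74. Atf3, a stress-induced factor, was at 129, 128, 119 and 144 CPM with PBS and at 31.1, 32.3, 26.7 and 27.4 CPM with H16R (−2.15 ± 0.20), with little spread in either group. Cd83, a surface molecule of activated lymphocytes and dendritic cells, fell from 287 ± 38.4 to 88.0 ± 21.0 CPM (−1.71 ± 0.16), the zinc finger gene Zbtb10 from 154 ± 34.1 to 53.3 ± 10.3 CPM (−1.53 ± 0.17), Rgcc, a regulator of the cell cycle, from 95.1 ± 12.5 to 36.4 ± 3.98 CPM (−1.39 ± 0.12), and the GTPase gene Rhob from 333 ± 24.7 to 142 ± 10.7 CPM (−1.23 ± 0.13). Klf4, a factor of quiescence, fell from 588 ± 76.3 to 270.2 ± 32.6 CPM (−1.12 ± 0.11), and Cybb, a subunit of the phagocyte oxidase, from 84.8 ± 15.6 to 39.6 ± 6.02 CPM (−1.10 ± 0.16).

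H16R was next set against the other IL-2 molecules given at the same dose and harvested on the same day in the isotype arm, 2 pairs in all. Against WT IL-2, which differs from H16R by 1 residue, 1099 genes (8.87%) were higher with H16R and 1210 (9.76%) lower. On library totals alone 685 were higher and 1601 lower, and with limma on log2(FPKM + 1) 614 and 1271. The titles of 2 of the 4 WT IL-2 libraries, 3a and 3b, carry the same animal number, so these may come from 3 mice, and leaving out 1 of the pair gave 1899 (without 3a) or 1568 genes (without 3b) in place of 2309. Against 3x, which carries 3 other substitutions, 715 (5.77%) were higher with H16R and 714 (5.76%) lower. With p-values adjusted over both pairs together these counts were 1029 and 1113 against WT IL-2 and 802 and 791 against 3x. The PBS libraries enter neither difference directly, but they share in the estimate of the spread and in the filter that sets which genes were tested.

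Among genes past the threshold with a mean above 5 CPM over the groups compared, those higher with H16R than with WT IL-2 by the most were Hdc, Lgals7, Gcg, Ifitm3 and Amotl1. Hdc was at 10.4, 17.1, 31.1 and 13.8 CPM with H16R and at 5.52, 6.74, 5.58 and 4.37 CPM with WT IL-2, with no overlap (difference 1.71 ± 0.39, adjusted p = 0.0047). Lgals7 (18.2 ± 5.24 CPM against 6.49 ± 1.12, difference 1.49 ± 0.20), Gcg (31.5 ± 16.4 against 11.8 ± 3.21 CPM, 1.42 ± 0.31) and Amotl1 (11.2 ± 2.78 against 5.53 ± 0.709 CPM, 1.02 ± 0.16) followed, and Ifitm3, an interferon-inducible membrane protein, was at 17.0 ± 7.65 against 7.32 ± 1.74 CPM (1.22 ± 0.34), a difference that did not pass without H16R replicate 3 (0.85, adjusted p = 0.17). Gzmb was higher with H16R as well (178 ± 58.4 against 88.2 ± 26.3 CPM, 1.01 ± 0.22, adjusted p = 0.004). Lower by the most, above the same limit, were Il1r2, Slpi, Hspa1a, Atf3 and Hspa1b. Atf3 was at 31.1, 32.3, 26.7 and 27.4 CPM with H16R and at 54.8, 68.0, 78.9 and 86.6 CPM with WT IL-2 (−1.297 ± 0.20, adjusted p = 1.67e-04), and Il1r2 at 7.99 ± 3.74 against 25.9 ± 15.5 CPM (−1.70 ± 0.34). Slpi, a secreted protease inhibitor, was at 3.64 ± 1.16 against 11.4 ± 4.28 CPM (−1.66 ± 0.46). Hspa1a was at 26.3, 23.5, 32.5 and 15.4 CPM with H16R and at 33.1, 26.6, 75.4 and 152 CPM with WT IL-2, with overlapping libraries (−1.55 ± 0.54, adjusted p = 0.057), and Hspa1b differed by −1.29 ± 0.47. Without WT IL-2 replicate 3b these were −0.88 (adjusted p = 0.33) and −0.68 (adjusted p = 0.4), and neither passed with the replicate number as a block (adjusted p = 0.13 and 0.14). With 1 library left out at a time the call was lost in 3 of 8 fits for Hspa1a and in 6 of 8 for Hspa1b.

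By list, 24 of 48 ribosome assembly genes, 14 of 18 chaperones, 14 of 36 replication genes and 9 of 20 TCR response genes were lower with H16R in this pair, and 13 of 22 small GTPase and actin regulators, 9 of 17 naive and recirculation genes and 8 of 16 galectin, S100, annexin and cytoskeletal effector genes were higher, against 9.76% and 8.87% of all tested genes. On library totals alone 6 of the 22 small GTPase and actin regulators were higher. Without H16R replicate 3, 14 of the ribosome assembly genes, 5 of the chaperones, 4 of the replication genes and 4 of the TCR response genes were lower, and 5 of the small GTPase and actin regulators and 0 of the galectin, S100, annexin and cytoskeletal genes were higher. The last of these counts was 1 without WT IL-2 replicate 2, 2 without WT IL-2 replicate 3b and 5 without H16R replicate 1. The ribosome assembly count was 15 without WT IL-2 replicate 2, 13 without WT IL-2 replicate 3b and 14 without H16R replicate 4, and the chaperone count was 7 without WT IL-2 replicate 3b or H16R replicate 4. The replication count was 8 without WT IL-2 replicate 1 or H16R replicate 4, and the small GTPase count was 8 without WT IL-2 replicate 2 and 7 without WT IL-2 replicate 3b or H16R replicate 1. Foxp3 was 0.22 ± 0.06 higher with H16R (adjusted p = 0.012, 996 ± 24.5 CPM with WT IL-2). Many Treg genes did not pass in this pair: the difference was −0.14 for Ctla4 (95% interval −0.34 to 0.06), 0.20 for Il10 (−0.08 to 0.49), 0.00 for Ikzf2 (−0.21 to 0.21), 0.20 for Il2ra (0.00 to 0.39) and 0.27 for Klrg1 (−0.08 to 0.62), all on the log2 scale. Markers of other cells were lower with H16R in this pair as well, all 5 of plasma cells, 5 of 7 of dendritic cells, 4 of 6 MHC class II genes, 2 of 6 of NK cells and 2 of 11 of B cells. Without H16R replicate 3 these were 0 of plasma cells, 2 of dendritic cells, 0 MHC class II genes and 0 of NK cells. The MHC class II count was also 1 without WT IL-2 replicate 2 or 3a or H16R replicate 1 and 2 without H16R replicate 2, and the plasma cell count was 3 without WT IL-2 replicate 3b or H16R replicate 1 or 4. The dendritic cell count was 2 without WT IL-2 replicate 2 and 3 without WT IL-2 replicate 3a or H16R replicate 4. The part of these cells in the differences from WT IL-2 was not tested. The number of genes that differed from WT IL-2 was 907 without H16R replicate 3 and 1512 without WT IL-2 replicate 2, against 2309 with all libraries.

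Against 3x, the genes higher with H16R by the most above that limit were Spp1, Hdc, Mzb1, Hspa1a and Vdr. Spp1, which encodes osteopontin, was at 9.24, 3.10, 1.80 and 22.5 CPM with H16R, where replicate 4 stood out, and at 2.27, 0.878, 1.76 and 1.03 CPM with 3x (difference 2.61 ± 0.73, adjusted p = 0.026), and without that library the difference was 1.65 (adjusted p = 0.21). Its rise over PBS (1.49 ± 0.70, adjusted p = 0.071) was 0.53 without H16R replicate 4 (adjusted p = 0.53), and it did not pass without PBS replicate 3 (adjusted p = 0.16) or PBS replicate 4 (adjusted p = 0.16). Nor did this rise pass with the replicate number as a block (1.33, adjusted p = 0.107). With only the 16 isotype Treg libraries in the fit it was 1.47 (adjusted p = 0.14). Vdr was at 10.9, 11.0, 15.0 and 23.0 CPM with H16R and at 5.70, 4.87, 2.71 and 5.85 CPM with 3x (1.65 ± 0.31, adjusted p = 0.0017), with no overlap. Hdc (18.1 ± 9.07 against 4.13 ± 1.80 CPM, 2.13 ± 0.39), Hspa1a (24.4 ± 7.08 against 6.88 ± 2.62 CPM, 1.83 ± 0.60) and the plasma cell gene Mzb1 (19.8 ± 5.83 against 5.01 ± 2.04 CPM, 1.97 ± 0.35) were higher too, and all 5 plasma cell markers were. The call of Hspa1a was lost in 5 of 8 fits with 1 library left out. Lower by the most, also above 5 CPM, were Drc1, Igfbp4, 1500009L16Rik, Amotl1 and Nckap5. Drc1, a regulator of ciliary dynein, was at 3.83, 3.35, 4.402 and 2.21 CPM with H16R and at 43.8, 14.7, 17.1 and 25.5 CPM with 3x (−2.87 ± 0.27, adjusted p = 9.62e-08), and Igfbp4 at 21.3 ± 2.66 against 81.8 ± 24.9 CPM (−1.94 ± 0.15). 1500009L16Rik (3.54 ± 0.673 against 7.51 ± 2.02 CPM, −1.08 ± 0.23), Amotl1 (−0.94 ± 0.15) and Nckap5 (6.55 ± 1.83 against 12.0 ± 1.44 CPM, −0.87 ± 0.19) were lower. Compared with PBS, H16R raised 1500009L16Rik (1.496 ± 0.28) and Nckap5 (2.38 ± 0.23), and Drc1 did not pass (0.20 ± 0.29, adjusted p = 0.57).

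Of the 35 mitotic genes 31 were lower with H16R than with 3x and 0 higher, against 5.76% and 5.77% of all tested genes, with a median difference of −0.54. Mki67, 275 ± 30.7 CPM with H16R, was at 398 ± 81.1 CPM with 3x (−0.54 ± 0.13, adjusted p = 0.013). Of the replication genes 12 of 36 were lower and of the STAT5 targets 8 of 13 were, among them Cish (−0.27 ± 0.06). Also lower were 19 of 48 ribosome assembly genes and 14 of 32 genes of sterol and fatty acid synthesis. How the counts of these last lists move with a library left out is not given here. Il2ra was lower with H16R (−0.37 ± 0.09, adjusted p = 0.014). Without 3x replicate 1 the adjusted p was 0.104 for Mki67 and 0.11 for Il2ra. Higher with H16R were 7 of 16 tissue Treg genes and 7 of 18 costimulatory and inhibitory receptors, among them Lag3 (1.06 ± 0.20) and Tigit (0.43 ± 0.10). Foxp3 differed by 0.03 (95% interval −0.08 to 0.14), Gzmb by −0.40 (−0.85 to 0.05), Il1rl1 by −0.19 (−0.42 to 0.04) and S100a6 by −0.21 (−0.52 to 0.10), none of which passed. Without 3x replicate 1, 13 mitotic genes, 3 replication genes and 4 STAT5 targets were lower and 4 costimulatory and inhibitory receptors higher, and without H16R replicate 4 these were 20, 7, 5 and 4. Without 3x replicate 3, 19 replication genes were lower. Without 3x replicate 4, 4 STAT5 targets were lower and 4 of those receptors higher, and without H16R replicate 1 or 2, 5 STAT5 targets were lower. The count of genes that differed from 3x, 1429, was 591 without 3x replicate 1, 789 without H16R replicate 4 and 791 without 3x replicate 4.

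The response to H16R was last compared between the antibody arms, isotype and the antibody to MHC class II, which shows peptides to the T cell receptor. Here MHC II block stands for that arm. For 1050 genes (8.47%) the H16R effect was higher in the isotype arm than under MHC II block, and for 1313 (10.6%) it was lower, by a test of the interaction. The largest interactions above 0, for genes with a mean above 5 CPM, were in Car1, Pgpep1l, Actn2, Gm14085 and Ifit1. Car1, a carbonic anhydrase, was at 26.0 ± 14.9 CPM with PBS and 7.11 ± 2.77 CPM with H16R under block, against 3.31 ± 2.54 to 3.44 ± 1.13 CPM in the isotype arm (interaction 1.96 ± 0.64, adjusted p = 0.044). The value of PBS replicate 4 for Car1 lay above the other PBS libraries, and its isotype effect was 0.09 ± 0.48, and 0.73 without that library. Without that library the interaction was 2.60, and without MHC II block PBS replicate 3 it was 1.55 (adjusted p = 0.11). Ifit1, a member of a family of close copies, was at 170.3 ± 20.5 and 68.6 ± 11.6 CPM under block and fell from 48.0 ± 9.08 to 35.1 ± 2.54 CPM in the isotype arm (interaction 0.87 ± 0.21). Pgpep1l (0.91 ± 0.20), Actn2, an alpha-actinin (0.89 ± 0.21), and Gm14085 (0.87 ± 0.15) rose in the isotype arm by 0.52 ± 0.14, 0.72 ± 0.15 and 0.26 ± 0.10, the last not past the threshold without PBS replicate 1 (adjusted p = 0.104).

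Among the largest interactions in the other direction, above the same limit, were those of Lyz2 (−4.39 ± 1.17), Scd1 (−4.35 ± 1.18), Gzma (−4.11 ± 0.54) and Pax5 (−3.52 ± 1.36). Without isotype PBS replicate 1 the interaction was −3.14 for Lyz2 (adjusted p = 0.076), −2.77 for Scd1 (adjusted p = 0.088) and −2.16 for Pax5 (adjusted p = 0.29), and without both that library and PBS replicate 4 Scd1 did not pass either (adjusted p = 0.12). Gzma was at 2.17 ± 0.262 CPM with PBS and 81.2 ± 20.4 CPM with H16R under block, against 3.46 ± 1.22 to 7.72 ± 2.19 CPM in the isotype arm (adjusted p = 1.84e-05). Pax5 was at 7.31 ± 5.34 and 2.85 ± 1.79 CPM under block, against 104, 14.7, 9.30 and 19.9 CPM in the isotype PBS libraries. Gzmb rose more under block (8.97 ± 1.19 to 535 ± 107 CPM, interaction −1.87 ± 0.37, adjusted p = 0.0019), as did Il10 (−0.57 ± 0.21), while Foxp3 rose more in the isotype arm (0.21 ± 0.08, adjusted p = 0.079). With 1 library left out at a time, the call was lost in 9 of 16 fits for Foxp3, in 7 of 16 for Il10 and in 10 of 16 for Pax5. The block on the replicate number also ended the call of Pax5 (adjusted p = 0.103). Of the lists, 23 of 36 replication genes, 14 of 15 cytotoxic genes, 18 of 37 proteasome subunits and 11 of 24 glycolysis genes had a lower effect in the isotype arm, against 10.6% of all tested genes, and 7 of 17 naive and recirculation genes and 5 of 12 Treg identity genes a higher one, against 8.47%. The proteasome count was 10 without isotype PBS replicate 1, isotype H16R replicate 4 or block H16R replicate 3, 9 without block H16R replicate 4, 29 without isotype PBS replicate 4 and 31 without block H16R replicate 2. The Treg identity count was 2 without isotype PBS replicate 1 or block PBS replicate 1 or 2, and 3 without isotype PBS replicate 3, isotype H16R replicate 2 or 4, or block H16R replicate 1 or 4. Of the other lists named here, 7 glycolysis genes were lower without block H16R replicate 3, 11 naive and recirculation genes were higher without isotype PBS replicate 4, and 14 replication genes were lower without both isotype PBS replicates 1 and 4. Markers of other cells moved in the same direction as the cytotoxic genes. The effect was lower in the isotype arm for 6 of 6 NK cell markers (median −2.82), of which 3 rose with H16R under block and 2, Gzma and Eomes, also stand in the cytotoxic list, and for 10 of 11 B cell, 5 of 5 plasma cell, 6 of 6 MHC class II, 6 of 8 monocyte and macrophage, 5 of 7 dendritic cell and 5 of 6 neutrophil markers. Without isotype PBS replicate 1 the B cell count was 5, the monocyte count 1 and the neutrophil count 2, and without block H16R replicate 3 the monocyte count was 3 and the neutrophil count 0. The part of these cells in the interactions was not tested. The number of interactions, 2363, was 3593 without isotype PBS replicate 4 and 1488 without MHC II block H16R replicate 3.

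**Figure D5:**
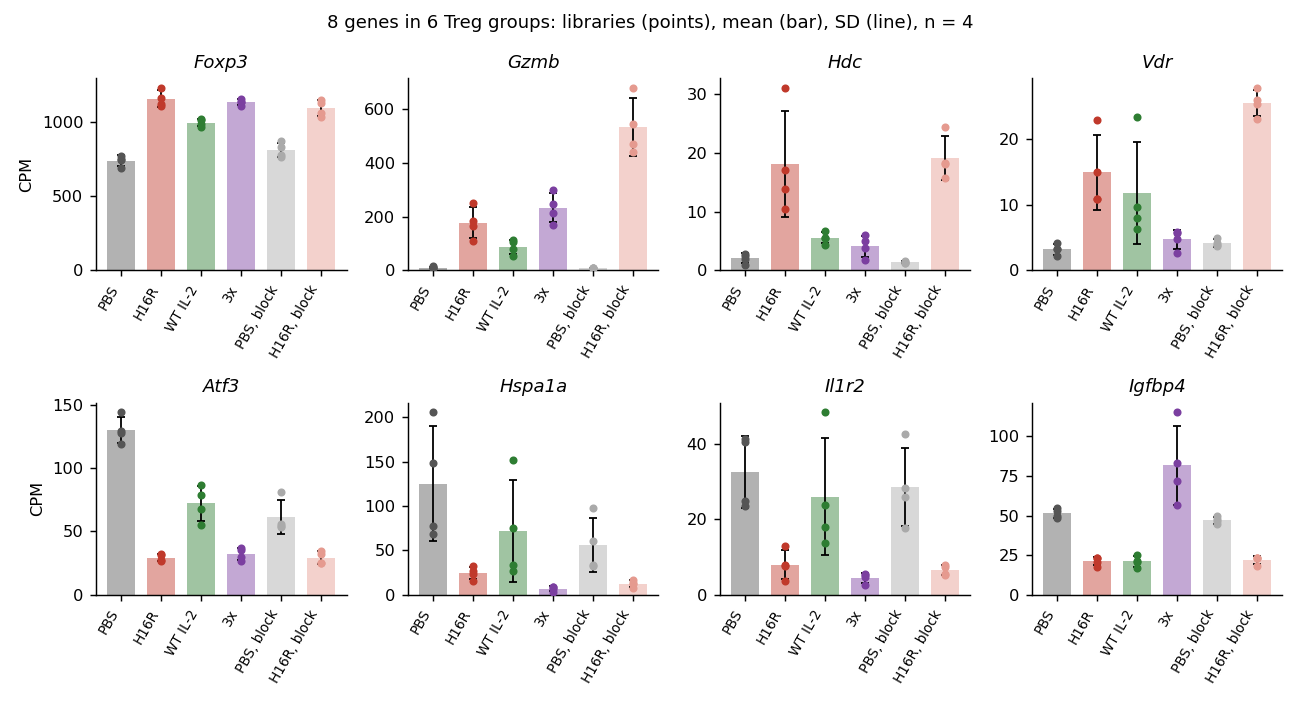
CPM of 8 genes in 6 Treg groups (isotype antibody unless marked block), with bars at the mean, lines for the SD and points for the 4 libraries of each group. Hdc is highest in both H16R groups, Igfbp4 is higher with 3x (81.8 ± 24.9 CPM) than with H16R (21.3 ± 2.66 CPM), and Gzmb is highest with H16R under block (535 ± 107 CPM).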

How the data were processed

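RNA from the CD25+ and CD25- fractions of splenic CD4 T cells was sequenced by the authors with a stranded mRNA kit. They aligned reads to the mouse B38 genome with the Omicsoft aligner and quantified genes with RSEM in the same suite, and DESeq2 1.30.1 was their test per the labels. The deposited expected counts, which need not be whole, were rounded and tested here; the deposited FPKM values, made by the authors, were used for levels between genes and for an alternative. Tables of the authors' own comparisons, with their DESeq2 fold changes and adjusted p-values, were not used.

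The 32 Treg libraries were fitted together in 8 groups with edgeR 4.0.16 (quasi-likelihood test, TMM scaling, R 4.3.3), with Benjamini-Hochberg adjustment over all tested genes and a threshold of 0.1. Protein-coding genes above 0.5 CPM in at least 4 libraries were kept, 12421 in all, of which 29 were left out because their cell was empty in isotype PBS replicate 4, leaving 12392. Gene types and positions came from GENCODE vM21 on GRCm38, which named 96.6% of the genes. Replicates are separate mice per the study's methods, but 2 WT IL-2 libraries carry the same animal number in their titles and may come from 1 mouse. Total expected counts ran from 18.28 to 51.95 M over all 48 libraries. Direct tests of H16R against WT IL-2 and against 3x and the interaction with MHC II block came from the same fit. Standard errors are the log2 fold change divided by the root of its F value.

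The comparison and the gene lists were chosen with earlier results of these data known. Genes were named by rule: the 15 largest called rises and falls with a mean above 5 CPM and groups that did not overlap, members of the lists (always the largest rise, the largest fall and the most highly expressed of a list of more than 6), and the 5 largest called differences each way in each direct test with a mean above 5 CPM over the groups compared. Genes above 50 CPM were added by a rule set after the values were seen. Some genes that these rules name are not reported here. The fit was also run on simulated counts with few changed genes, the same spread for all genes and no distant library. That run cannot vouch for the scaling or the spread in these data. DESeq2 1.42.0 and limma 3.58.1 (log2 of FPKM plus 1 or 0.1) were alternatives, as were other scalings and filters, thinning to 18.28 M, a replicate block and each library left out in turn. The CD25- libraries entered only the check of markers. Figures were drawn with matplotlib 3.10.9.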

Additional observations from a re-analysis of the deposited data

Results flagged for a closer look

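A library stood far from the other 3 of its group in 53 of 434 groups of 4 tested (12.21%). In each of these the gap to the nearest library, as a share of the range of the group, was above Dixon's critical value for 4 samples. In a single test that value is passed by chance in about 5% of cases. The tests share the same 8 libraries and many of the genes move together, so that 5% is no benchmark for the share. PBS replicate 1 was that library 22 times and PBS replicate 4 13 times. PBS replicate 1 was the distant library, highest in its group, with CPM of 5.94 for C1qa, 8.06 for Ccnd1, 1179 for Cd74, 149 for Cd79a, 91.6 for Cd79b, 42.3 for Chst3, 54.3 for Fcer2a, 410.0 for H2-Aa and 409 for H2-Ab1. In PBS replicate 1, again highest in its group, the CPM values were 370.5 for H2-Eb1, 23.6 for Hk2, 8.91 for Itgam, 38.6 for Lyz2, 72.4 for Ms4a1, 17.0 for Mybl2, 104 for Pax5, 82.8 for Scd1 and 43.3 for Siglecg. For PBS replicate 1, also highest, the CPM values were 45.5 for Spib. The summed CPM of B cell markers in PBS replicate 1 was 852, the highest of the group. The summed CPM of MHC class II markers in PBS replicate 1 was 2533, the highest of the group. The summed CPM of monocyte and macrophage markers in PBS replicate 1 was 113, the highest of the group. PBS replicate 4 was the distant library, highest in its group, with CPM of 7.08 for Car1, 101 for Itgae and 644 for Rel. PBS replicate 4 was the distant library, lowest in its group, with CPM of 180.4 for Cd27, 28.4 for Ddit4, 601 for Itgb7, 92.6 for Lgals1, 244 for Psmb8, 748 for Rps27, 208 for S100a10, 27.8 for S100a6 and 25.6 for Socs1. In PBS replicate 4, again lowest in its group, the CPM values were 129 for Uqcrh. PBS replicate 2 was the distant library, lowest in its group, with CPM of 391 for Ccr7. PBS replicate 3 was the distant library, highest in its group, with CPM of 282 for Acly and 279.6 for Dusp5. H16R replicate 1 was the distant library, lowest in its group, with CPM of 87.0 for Batf. H16R replicate 2 was the distant library, highest in its group, with CPM of 98.6 for Nop56. H16R replicate 2 was the distant library, lowest in its group, with CPM of 176 for Gimap7. H16R replicate 3 was the distant library, highest in its group, with CPM of 306 for Ikbkb, 1257 for Itgb7, 329 for Psmb8, 102 for Socs2 and 399 for Socs3. H16R replicate 3 was the distant library, lowest in its group, with CPM of 7.62 for Ccr6 and 0.408 for Cd180. The summed CPM of MHC class II markers in H16R replicate 3 was 172, the lowest of the group. H16R replicate 4 was the distant library, highest in its group, with CPM of 129.8 for Bcl2 and 237 for Cbx7. H16R replicate 4 was the distant library, lowest in its group, with CPM of 13.5 for Ccnb1 and 0.639 for Xcr1.

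Of 206 genes named here, 83 had an effect of H16R that differed between the isotype and the MHC II block arm at an adjusted p under 0.1 in the interaction test of edgeR. Over all tested genes 8.47% were higher and 10.6% lower in the isotype arm, and the named genes include some chosen for the size of this difference. The values are the isotype effect minus the block effect on the log2 scale. Without isotype PBS replicate 1, 19 of the 83 did not pass, among them C1qa at −3.61 (adjusted p = 0.61) and Fcer2a at −3.86 (adjusted p = 0.21), and without isotype PBS replicate 4 it was 3. With each of the 16 libraries left out in turn, 27 lost the call in at least 1 fit, and 6 did in more than 8 of them (Nckap5 in 13, 1500009L16Rik in 12, Lgals1 in 10, Pax5 in 10, Foxp3 in 9 and Socs2 in 9). The cause of these differences was not tested. The effect was higher in the isotype arm by 1.96 (Car1), 0.91 (Pgpep1l), 0.89 (Actn2), 0.87 (Gm14085), 0.87 (Ifit1), 0.46 (Phlpp1), 0.41 (Isg15), 0.41 (Ikzf2), 0.37 (Fos) and 0.35 (Lrrc32). Next, again higher in the isotype arm, came 0.33 (Cbx7), 0.31 (Cdkn1b), 0.30 (Cd27), 0.26 (Jak1), 0.24 (Ikbkb), 0.21 (Stat5b), 0.21 (Foxp3), 0.18 (Ezh1) and 0.16 (Pik3cd). The effect was lower in the isotype arm by −8.00 (C1qa), −6.15 (Fcer2a), −4.39 (Lyz2), −4.35 (Scd1), −4.11 (Gzma), −3.52 (Pax5), −3.45 (Cd180), −3.35 (Spib), −3.27 (Siglecg) and −3.24 (Plbd1). Next, again lower in the isotype arm, came −3.18 (Chst3), −3.14 (Itgax), −3.09 (Ms4a1), −2.99 (Cd209a), −2.91 (Cd79a), −2.87 (Wdfy4), −2.49 (Bcl2a1a), −2.45 (Ly86), −2.41 (H2-Ab1) and −2.38 (H2-Eb1). Smaller differences, lower in the isotype arm, were −2.19 (H2-Aa), −2.04 (Xcr1), −1.996 (Klrk1), −1.95 (Ifitm3), −1.89 (Itgam), −1.88 (Anxa1), −1.87 (Gzmb), −1.85 (Cd74), −1.82 (Jchain) and −1.78 (Spry2). Others lower in the isotype arm were −1.74 (Prg2), −1.71 (Chac1), −1.67 (Ccnd1), −1.58 (Mzb1), −1.49 (Cd79b), −1.29 (Ccr3), −1.07 (Atf3), −1.03 (Rps12), −1.00 (1500009L16Rik) and −0.86 (Nckap5). Also lower in the isotype arm were −0.85 (Eomes), −0.82 (Havcr2), −0.78 (Hk2), −0.68 (Ccr2), −0.67 (Uhrf1), −0.64 (Pim2), −0.59 (Anxa2), −0.59 (Cxcr3), −0.58 (Egr1) and −0.57 (Mcm5). The remaining genes lower in the isotype arm had values of −0.57 (Il10), −0.54 (Lgals1), −0.53 (Mybl2), −0.51 (Top2a), −0.48 (Socs2), −0.44 (Bhlhe40), −0.41 (Gapdh), −0.40 (Tnfrsf4), −0.36 (Mcm2) and −0.31 (Il2rb). The remaining genes lower in the isotype arm had values of −0.28 (Psmd9), −0.27 (Dusp5), −0.25 (Psmb8) and −0.24 (Cish).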

How the results depend on the processing

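The number of genes changed by H16R against PBS lay between 6818, with only the groups of the comparison in the fit, and 8836, with all biotypes, and from 7351 to 7952 with 1 library left out at a time. Of the 125 counts of genes computed over all settings, 110 lay within 1.5 times the main count. The number changed at least 2-fold was 1275. It was 294 with limma on log2(FPKM + 1), 914 with limma on log2(FPKM + 0.1) and 1981 with no filter on low counts. With 1 library left out it ran from 1164 to 1313. The number of genes that differed from WT IL-2 ran from 907 to 2394 with 1 library left out, and was 1041 without both PBS replicate 1 and H16R replicate 3 and 1472 at an adjusted p under 0.05. The number that differed from 3x ran from 591 to 1501 with 1 library left out, and was 2258 with only the groups of the comparison in the fit and 893 at an adjusted p under 0.05. The number of interactions with MHC II block ran from 1488 to 3593, and was 1574 without both PBS replicate 1 and H16R replicate 3 and 1378 at an adjusted p under 0.05. The cause of these moves was not tested.

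C1qa was the gene whose log2 fold change turned, to 0.17 without PBS replicates 1 and 4 (adjusted p = 0.97). The PBS and H16R replicate numbers share no stated origin. The correlations of the deviations of same-numbered libraries were 0.005, 0.034, 0.070 and 0.096, and those of other pairs ran from −0.106 to 0.1. These few values cannot show whether the numbers pair the libraries. With the replicate number as a block, 7972 genes changed, 1258 at least 2-fold, 2342 differed from WT IL-2, 1445 from 3x, and 2378 had an interaction. On library totals alone the median of all genes moved from −0.01 to −0.08, and the medians of the interferon, naive, proteasome and TGF-beta lists fell below 0. The number of genes that fell was then 2 instead of 1 among Treg identity genes, suppressor molecules and the galectin, S100, annexin and cytoskeletal genes, and the number that rose was 4 instead of 7 among ribosomal proteins, 1 instead of 3 among DNA methylation and Polycomb genes and 1 instead of 2 among chaperones. The totals of 18.28 to 51.95 M limit what can be said of genes below 1 CPM.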
